A study of Mus musculus with 4 samples.

Results

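Gap43, the growth-associated protein of nerve growth cones, was followed through ganglion RNA after a peripheral nerve injury. It was represented by 1 transcript, ENSMUST00000102817.5, out of 116912 transcript identifiers that were the same in every file. It was chosen by its identifier with earlier results of these data known. Its values below are therefore a description, and no test is attached to them. The name Gap43 comes from the rule by which the transcript was chosen. The gene table used here lists the gene as ENSMUSG00000047261.9 but pairs none of the transcript identifiers with a symbol.

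Dorsal root ganglia, which hold the cell bodies of sensory neurons, were taken from adult mice in 4 groups of 1 sample each. Bulk RNA was the total RNA of wild-type CD-1 mice, either without injury or 72 hours after the sciatic nerve was injured with forceps. RiboTag RNA was taken under the same 2 conditions from mice of the genotype RPL22HA+/+;Advillin-Cre+. They came from a cross of B6N.129-Rpl22tm1.1Psam/J, which carries the tag, with B6.129P2-Aviltm2(cre)Fawa/J, which carries the Cre. In these mice an HA-tagged ribosomal protein is switched on by Cre under Advillin, a gene of sensory neurons, and ribosomes with their RNA were pulled down with an anti-HA antibody. Bulk libraries were made by direct RNA sequencing and RiboTag libraries by PCR of cDNA. Strain, genotype, immunoprecipitation and library kit therefore changed together and cannot be told apart. How many animals went into a sample is not given in the sources used here, and the markers of neurons, glia and other ganglion cells were not tested because the files name transcripts by identifier only.

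Gap43 is a phosphoprotein that lipid anchors hold at the inner face of the growth cone membrane. It binds calmodulin and is phosphorylated by protein kinase C, and it takes part in organising the actin of growing axon tips. Sensory neurons raise its mRNA when their peripheral axon is cut or crushed, which has made it a standard marker of the regenerative state, and Schwann cells that have lost their axons can make it as well. No sequence is printed. In RefSeq's GRCm38.p6 annotation the gene has 1 transcript and lies between the coding genes Gm52229 and Zbtb20. The deposited files use the later build GRCm39, so coordinates are left out.

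Each file held 3 numbered columns of estimated reads. The labels give them no meaning, and the column totals of a library lay close together, so the columns were averaged and counted as 1 sample. The mean depth was 592935 and 529332 reads in uninjured and injured bulk RNA, and 207597 and 79334 reads in uninjured and injured RiboTag RNA. Levels are given on the TPM scale, which here is a count scaled to a common library total with no transcript length in it. Each has an exact binomial 95% interval that covers counting error only and not the spread between animals. A pair of other transcripts took 31.2% of uninjured and 40.9% of injured RiboTag reads against 0.0189% and 0.0191% in bulk RNA, which lowers every other RiboTag level, that of Gap43 included.

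Gap43 was an abundant transcript in all 4 libraries, and it was higher in both injured libraries than in the uninjured library of the same assay. In uninjured bulk RNA its columns held 112, 151 and 148 reads, or 189, 254 and 249.7 TPM. After injury the bulk columns held 183, 189 and 170 reads, or 346, 356 and 321 TPM. The first uninjured column stood below the other two, and no injured bulk column overlapped an uninjured one. In uninjured RiboTag RNA the columns held 42, 34 and 36 reads, or 202, 164 and 173 TPM. In injured RiboTag RNA they held 30, 32 and 37 reads, or 378, 404 and 466 TPM. The RiboTag conditions were further apart on the TPM scale than the bulk conditions, although the number of Gap43 reads itself was slightly lower in the injured RiboTag library, which was 2.62-fold shallower.

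**Figure D1:**
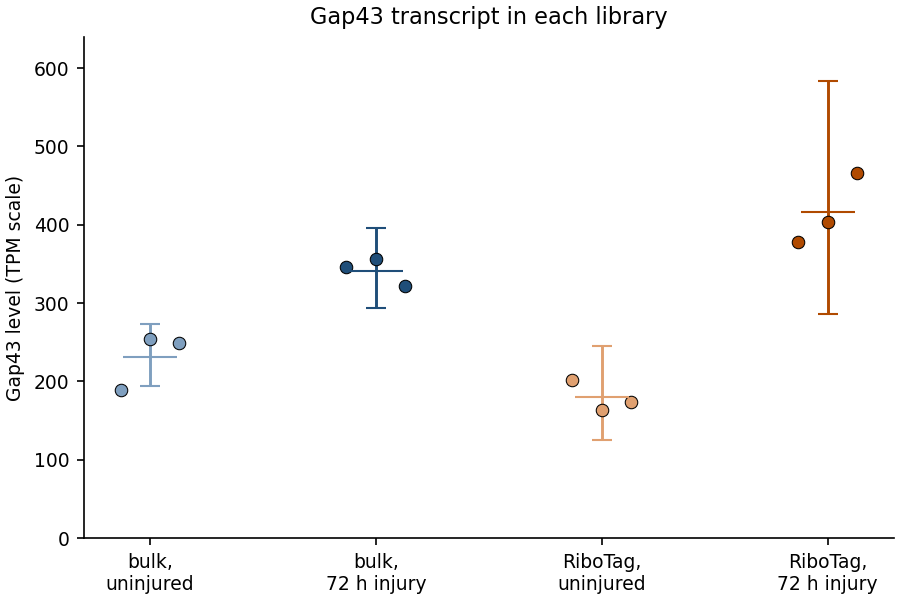
Level of the Gap43 transcript on the TPM scale (y axis) in the 4 libraries (x axis). Points are the 3 deposited TPM columns, horizontal lines the mean level and bars the 95% counting interval. Injured columns lay above uninjured columns in both assays.

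Ordered by mean level, Gap43 was lowest in uninjured RiboTag RNA at 179.8 TPM (95% counting interval 125 to 246). Uninjured bulk RNA followed at 231 (194 to 273), and its columns overlapped those of uninjured RiboTag RNA. Injured bulk RNA came next at 341 (294 to 396), with columns apart from both uninjured libraries. Injured RiboTag RNA was highest at 416 (286 to 584). Its columns lay just above those of injured bulk RNA, by 1.06-fold from the lowest of the one to the highest of the other, but the counting intervals of these 2 levels overlapped widely.

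The place of Gap43 in the order of abundance also rose with injury in each assay, and it does not depend on how libraries are scaled. Counted from the most abundant transcript, it was number 747 of the 22148 transcripts with a value in uninjured bulk RNA and number 466 of 21093 after injury. In RiboTag RNA it was number 611 of 18565 without injury and number 153 of 13793 after it. Without injury, 3.37% of transcripts with a value stood above it in bulk RNA and 3.29% in RiboTag RNA. Its place in the uninjured libraries thus did not follow its lower RiboTag level. Single columns placed it between 694 and 932 in bulk RNA without injury and between 456 and 530 after it. The corresponding RiboTag ranges were 539 to 722 and 130 to 180. The ranges of the uninjured and injured libraries of an assay did not overlap.

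An estimated read count that is not whole shows that some reads were divided among transcripts. The Gap43 counts were whole numbers, to within 0.001 read, in 10 of 12 columns. In uninjured bulk column 2 the 150.861 reads of Gap43 and the 1.139 reads of ENSMUST00000125187.2, the next identifier in the list, added up to 152. That identifier had no reads in the other columns. The other count that was not whole, 188.732 reads in injured bulk column 2, gave no whole sum with any single identifier within 10 places in the list. Among transcripts within 2-fold of Gap43 in abundance, values were whole in all 3 columns for 22.3% (uninjured) and 15.1% (injured) in bulk RNA, and for 54.7% and 59.6% in RiboTag RNA.

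The spread of its columns was compared with counting noise. In injured bulk RNA the coefficient of variation of the Gap43 columns was 5.32%, where counting alone gives 7.44%. It was 11.2% against 16.4% in uninjured and 10.9% against 17.4% in injured RiboTag RNA. Only in uninjured bulk RNA was the spread wider than counting, at 15.8% against 8.55%, which came from the low first column. A chi-square over those columns was 6.85 on 2 degrees of freedom, and 21.1% of transcripts of like abundance had a larger one.

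The first comparison asked how nerve injury changed Gap43 in the whole ganglion. Gap43 had a mean of 137 reads without injury and 181 after it, where an unchanged share of the library would have given 122. The log2 change was 0.56 (95% counting interval 0.24 to 0.90), or 1.48-fold (1.18 to 1.86). From the uninjured reads, 155 injured reads, a 1.27-fold rise, was the smallest value whose interval leaves out no change. Gap43 did not reach the 2-fold change with an interval excluding no change by which transcripts were counted as higher, a rule that 5.21% of 7739 transcripts with 20 or more reads met, while 4.55% were lower by it. In bulk RNA, more RNA per cell and more cells of a type that holds it cannot be told apart.

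Single columns gave the same direction with a wide range. All 9 pairings of an injured with an uninjured bulk column had a positive log2 change, from 0.34 to 0.91. The largest difference between columns of the same bulk library was 0.43, between columns 1 and 2 without injury, so the smallest pairings between conditions were no larger than this. Without column 1 in every library the bulk change was 0.43 (0.11 to 0.75). All 3 injured columns exceeded all 3 uninjured columns for 10.3% of the 7739 transcripts and lay below them for 9.90%. They exceeded them for 162 of the 1086 transcripts of like abundance (14.9%), so columns that lie apart were common in bulk RNA.

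Among transcripts of like abundance, meaning those whose reads summed over the 2 libraries were within 2-fold of those of Gap43, the bulk change of Gap43 lay near the upper edge. It exceeded that of 91.5% of 1086 transcripts, and 92 changed at least as much. Their median log2 change was 0.02, with 5th and 95th percentiles of -0.69 and 0.79. Among all transcripts with 20 or more reads, 88.0% changed less than Gap43 did. Among transcripts whose columns agreed by a chi-square test at 0.001, a choice made after the data were seen, the share was 97.0% of 839 of like abundance.

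The second comparison asked how injury changed Gap43 in the RNA that came down with the tagged neuronal ribosomes. The mean was 37.3 reads without injury and 33 reads after it, where an unchanged share of the shallower library would have given 14.3. The log2 change was 1.21 (0.50 to 1.94), or 2.32-fold (1.41 to 3.84) relative to library totals. Gap43 was thus counted as higher, as were 2.95% of 1866 transcripts, against 8.04% that were counted as lower. With so few reads, 25 injured reads, or 1.76-fold, was the smallest value whose interval leaves out no change.

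The RiboTag change was larger than the differences between columns. The lowest injured TPM was 1.87 times the highest uninjured TPM, and the 9 pairings of columns gave log2 changes from 0.91 to 1.51. Columns of the same RiboTag library differed by at most 0.30. All injured columns were higher for 10.1% of the 1866 transcripts and all were lower for 28.0%. With the dominant pair left out of the totals these shares were 17.2% and 18.6%, so the imbalance was smaller on that scale. Shares on other scales were not computed.

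The size of the RiboTag change depended on the scale. The dominant pair took a larger share after injury. The median log2 change of all 1866 transcripts was -0.21 under library totals, 0.01 with the pair left out of the totals, -0.37 with the TMM factors of edgeR and -0.33 with the size factors of DESeq2. The change of Gap43 was 1.43, 1.05 and 1.09 under the last 3 scales. Leaving out the pair thus raised it from 1.21, while the TMM and DESeq2 factors lowered it. Under each of these scales Gap43 stood 1.42 above the median. It exceeded 97.9% of 809 transcripts of like abundance, of which 17 changed at least as much, and their 5th and 95th percentiles were -1.48 and 0.85. Among all transcripts tested the share below Gap43 was 97.4%.

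**Figure D2:**
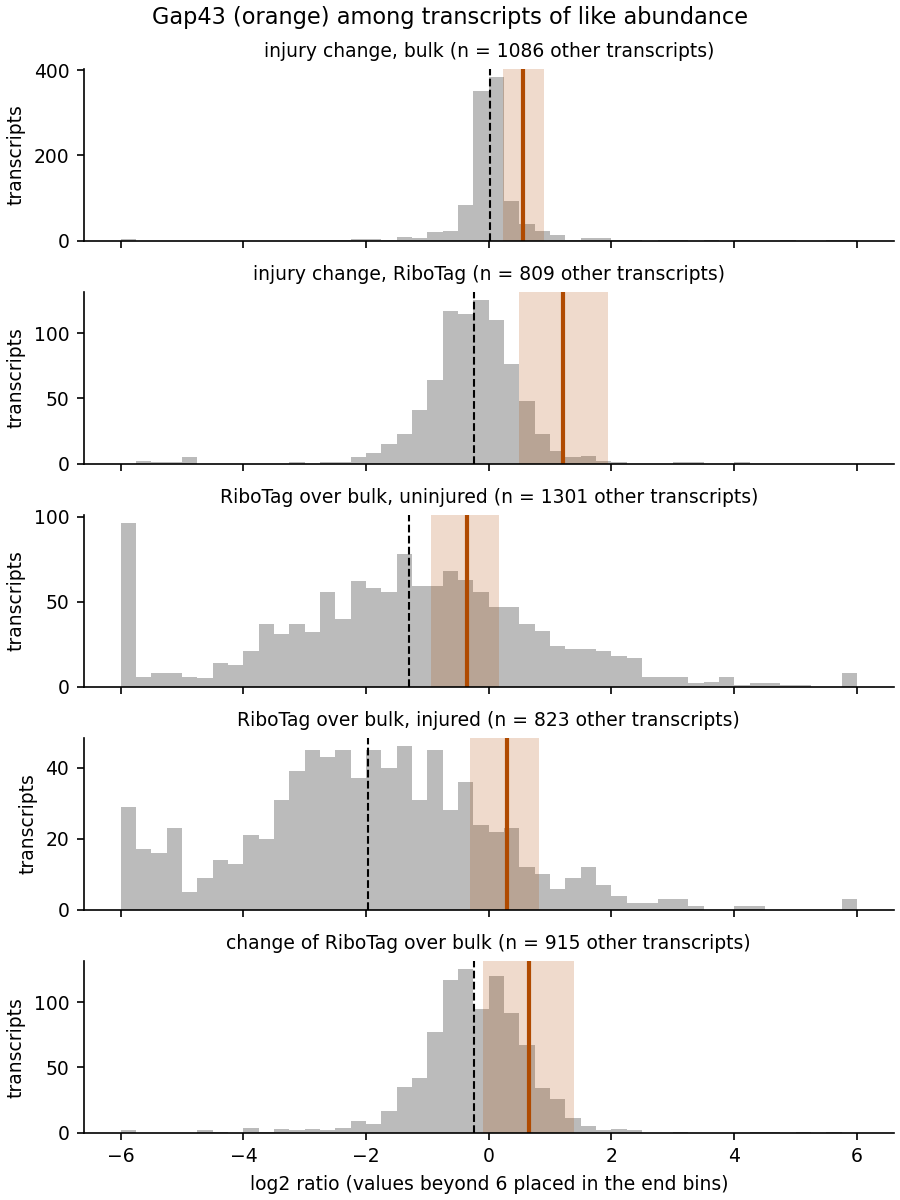
Number of transcripts (y axis) by log2 ratio (x axis) for the 5 comparisons, among transcripts of like abundance. The solid orange line is Gap43, the shaded band its 95% counting interval and the dashed line the median of the others. Gap43 stands far to the right in the RiboTag injury panel, where it exceeds 97.9% of the others, and nearer the middle in the uninjured RiboTag over bulk panel, where it exceeds 68.3%.

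Few transcripts had counting intervals above no change in both assays, which use separate libraries. Rises whose interval included no change in an assay were not counted by this rule. Of 1594 transcripts with 20 or more reads in both injury comparisons, 27 had intervals above no change in both (1.69%), and Gap43 was among them. For 50 of the 1594 (3.14%) all injured columns were higher in both assays, and 23 (1.44%) met both conditions, Gap43 again included. A change at least as large as that of Gap43 was seen in 147 others in bulk RNA, in 36 in RiboTag RNA and in 15 in both at once.

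Those 15 transcripts mostly had fewer reads than Gap43, so counting error is larger in their ratios. For 13 of the 15 the counting intervals lay above no change in both assays. In bulk RNA 1 of the 15 had more reads than Gap43 over the 2 libraries, and in RiboTag RNA 1 did. Their log2 changes ran from 0.69 to 5.63 in bulk RNA and from 1.30 to 5.09 in RiboTag RNA, and in 14 of them the columns lay apart in both assays. Against the 26 other transcripts with both intervals above no change, Gap43 had one of the smaller bulk changes, since 23 of them changed more there, and a middle RiboTag change, since 15 of them changed more. Across the 26, the median change on the log2 scale was 1.01 for bulk and 1.46 for RiboTag RNA. The 26 were chosen by these changes, so the medians describe them only.

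**Figure D3:**
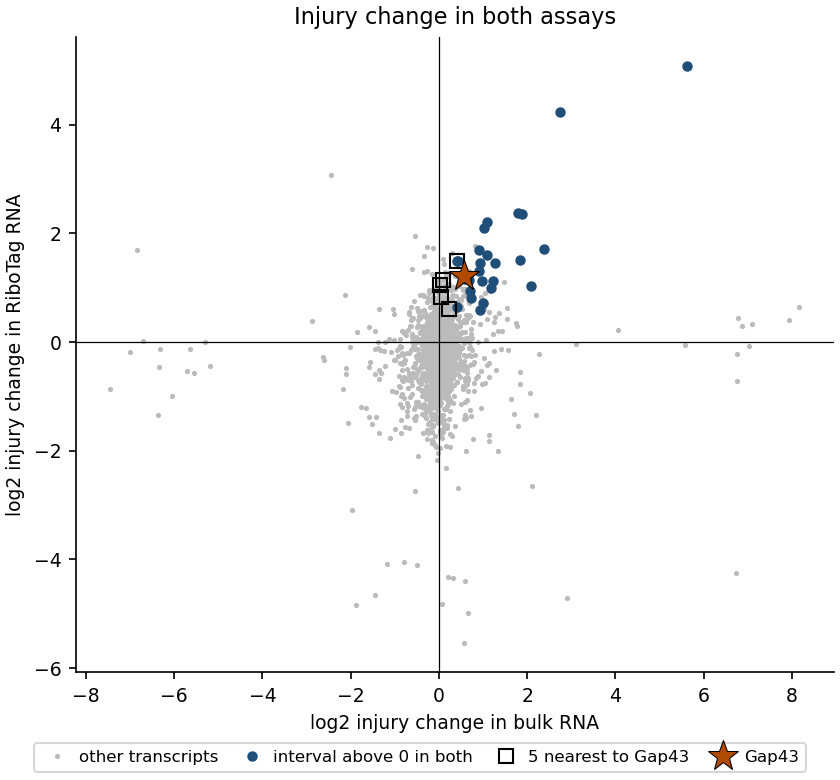
Log2 injury change in bulk RNA (x axis) and in RiboTag RNA (y axis) for 1594 transcripts with 20 or more reads in both comparisons. The star is Gap43 at 0.56 and 1.21, dark points are the 26 other transcripts with both counting intervals above 0, and squares are the 5 transcripts nearest to Gap43 in pattern.

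Next, the level of Gap43 on tagged ribosomes was set against its level in the whole ganglion, which the title of the series frames as ribosome association. Without injury the log2 ratio of Gap43 was -0.35 (-0.94 to 0.16), or 0.786 times the bulk level, and its columns overlapped between the assays. After injury it was 0.30 (-0.30 to 0.82), or 1.23 times the bulk level. Both intervals included no difference. Gap43 was therefore counted neither among the 14.5% higher nor the 44.1% lower of 6174 transcripts without injury, nor among the 7.69% higher and 36.0% lower of 5045 after it. After injury all Gap43 columns were higher in RiboTag RNA, as for 11.3% of transcripts, while 54.8% had all columns lower. Without injury, when its columns overlapped, 18.9% had all columns higher and 50.3% all lower.

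Most transcripts of like abundance were lower in RiboTag than in bulk RNA, and Gap43 ranked above their middle. Without injury their median log2 ratio was -1.30, and Gap43 exceeded 68.3% of 1301 transcripts. After injury the median was -1.97, and Gap43 exceeded 88.2% of 823, with 97 at least as high. Like abundance is set here mainly by the deeper bulk library. The lead of Gap43 also depended on the 0.5 read added to each mean. With 5 reads added instead, the median injured ratio of all transcripts went from -1.25 to 0.18. The lead of Gap43 over that median fell from 1.55 to 0.27 with injury, and from 0.64 to 0.16 without it. Ranks were not computed with 5 reads added. The sign of the uninjured Gap43 ratio depended on the scale, while the injured ratio was positive under each scale and the ranks did not depend on it. With the dominant pair left out of the totals the ratio was 0.19 (-0.40 to 0.70) without injury and 1.06 (0.46 to 1.58) after it, and the latter met the rule for a higher transcript. On that scale 13.5% of the 5045 transcripts were counted as higher after injury and 17.7% as lower. The uninjured interval lay below no difference without column 1, at -0.56 (-1.15 to -0.04), and with the columns summed as if they held separate reads, at -0.36 (-0.68 to -0.06). With TMM factors the uninjured and injured ratios were 0.01 and 0.49, and with the size factors of DESeq2 they were -0.06 and 0.47.

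The last comparison was between the injury changes of Gap43 in the 2 assays. The difference of the log2 injury changes was 0.65 (normal 95% counting interval -0.09 to 1.39), a 1.57-fold higher ratio after injury (0.938 to 2.63). No change lay inside the interval, so these reads did not separate the RiboTag change from the smaller bulk change. By the 2-fold rule the ratio was higher after injury for 2.63% and lower for 3.61% of 4905 transcripts, and Gap43 was in neither group. The interval lay above no change with the dominant pair left out of the totals, at 0.87 (0.13 to 1.61), without column 1, at 0.94 (0.20 to 1.68), and with the columns summed, at 0.65 (0.22 to 1.08). Summing left the value where it was and narrowed the interval only by counting the columns as separate reads, which the labels do not state.

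The ratio change of Gap43 exceeded that of 87.3% of 915 transcripts of like abundance, whose median was -0.24 and whose 5th and 95th percentiles were -1.65 and 1.05. Among the 26 other transcripts with both injury intervals above no change, 18 had a positive ratio change and 6 a larger one than Gap43. Their median was 0.32, against -0.07 for all transcripts. That choice itself favours a positive ratio change. From the reads of Gap43, the interval needs a 1.76-fold rise in RiboTag RNA but 1.27-fold in bulk RNA. Bulk RNA came from all cells of the ganglion, while the tag was placed in sensory neurons by design, and how much RNA of other cells came down with it was not tested. A change in other cells need not cancel in this difference.

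The transcripts with the pattern most like Gap43 were found from the distance between log2 levels over the 4 libraries, after taking away the mean of each transcript. Each of the 278 transcripts compared had a mean of 20 or more reads in every library. Relative to its own mean Gap43 moved from -0.27 without injury to 0.29 after it in bulk RNA, and from -0.62 to 0.60 in RiboTag RNA. The median distance of the other 277 transcripts was 1.80, and the 5 nearest lay within 0.53. This distance is unaffected by the scaling of the libraries.

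ENSMUST00000086199.12 was nearest, at a distance of 0.23. It had means of 137 and 163 reads in bulk RNA without and with injury, and of 31 and 33.3 reads in RiboTag RNA, counts much like those of Gap43. Its log2 injury changes were 0.42 in bulk and 1.49 in RiboTag RNA, and it was the only one of the 5 whose interval was above no change and whose columns lay apart in both assays.

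In the other 4, as in the nearest, the bulk change was smaller than that of Gap43. ENSMUST00000034878.12, at a distance of 0.40, changed by 0.08 in bulk and 1.14 in RiboTag RNA, but its uninjured RiboTag columns ranged from 0 to 79.9 reads. ENSMUST00000148314.3, at 0.42, changed by 0.03 and 1.06, with injured bulk columns from 0 to 185 reads. In both, the mean therefore joins columns that disagree. ENSMUST00000028926.13, at 0.46, changed by 0.04 and 0.82, and ENSMUST00000058845.9, at 0.53, by 0.22 and 0.61, with steadier columns. Leaving out a column kept only 2 or 3 of these 5 among the nearest.

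**Figure D4:**
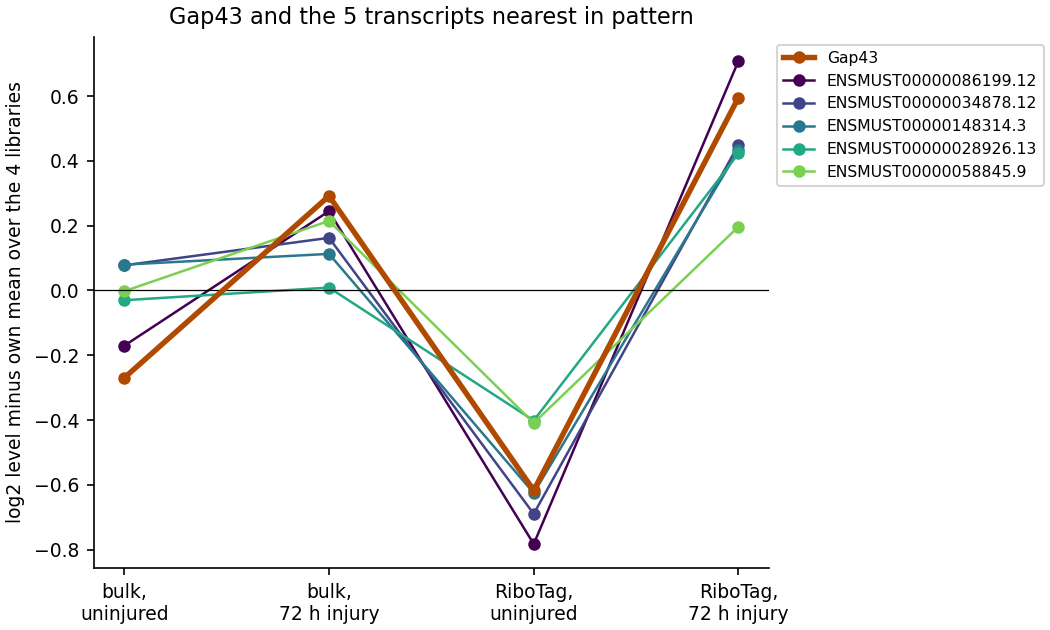
Log2 level minus the transcript's own mean over the 4 libraries (y axis) in each library (x axis) for Gap43, drawn thick, and the 5 transcripts nearest to it. All 6 are lowest in uninjured RiboTag RNA. Gap43 reaches its own highest level in injured RiboTag RNA at 0.60, where ENSMUST00000086199.12 stands higher at 0.71. Gap43 and ENSMUST00000086199.12 show the widest steps between the bulk libraries.

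The Gap43 injury changes kept their sign under each of the 10 other ways of computing them that were run. The bulk change ran from 0.43 to 0.66 and the RiboTag change from 1.05 to 1.43, and their intervals stayed above no change in each. The pseudocount does not enter these intervals, and adding the next transcript left them unchanged, so the other settings alone varied them.

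**Figure D5:**
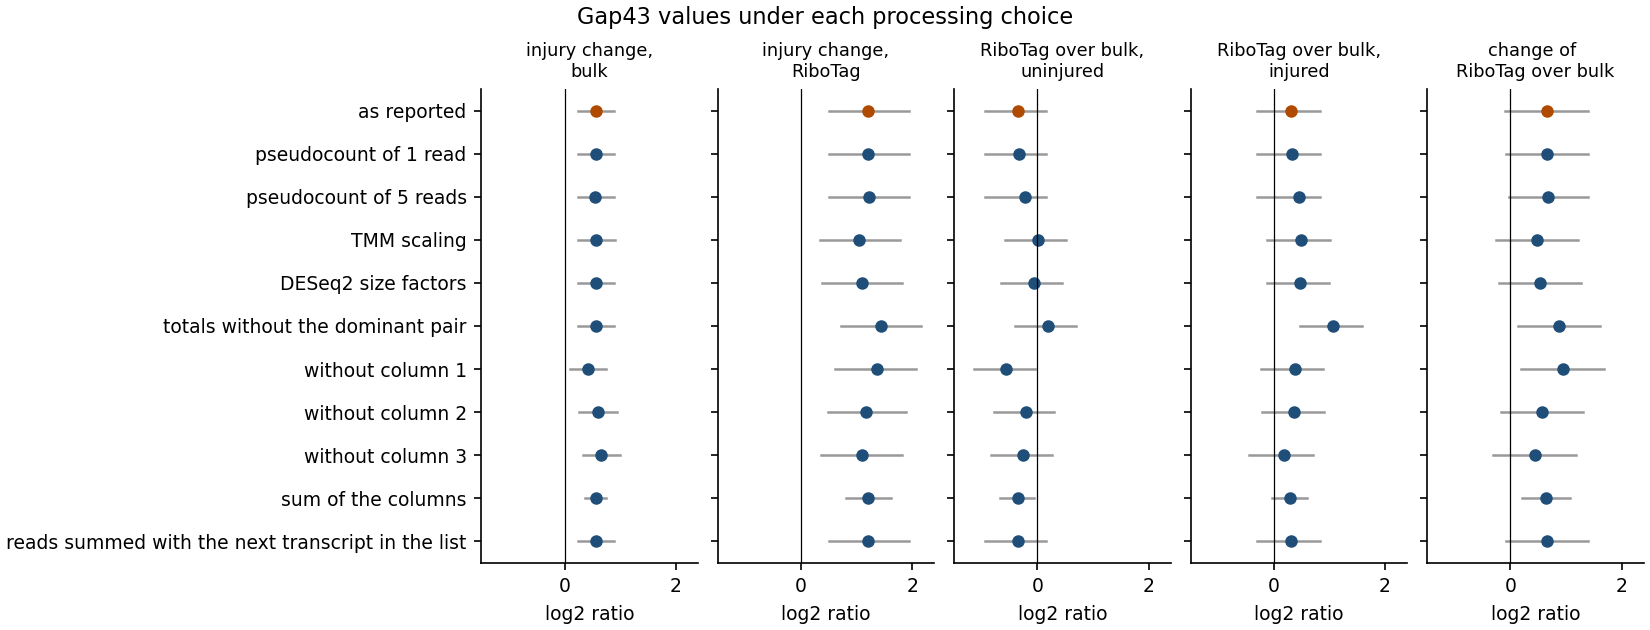
Log2 values of Gap43 (x axes) in the 5 comparisons under each processing choice (rows), with 95% counting intervals as lines. Both injury changes stay right of 0 in every row, and the RiboTag over bulk ratios move most when the dominant pair is left out of the totals.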

How the data were processed

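Per the labels' protocols, bulk libraries used a direct RNA kit and RiboTag libraries a cDNA-PCR kit. Per the submitters' processing notes, the authors used minimap2 and Salmon with the builds GRCm39 and mm39. The sources used here state no versions or settings, nor how the numbered columns were made. The deposited tables hold, per the file headers, estimated counts per transcript and TPM. Each deposited TPM value equals its count times 1 constant per column (within 0.0499%), so no transcript length entered it and levels of different transcripts are not per length.

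The 3 columns were averaged. Ratios used 0.5 read added to each mean, library totals, and an exact conditional binomial 95% interval from rounded counts. Transcripts entered with 20 or more reads over the libraries compared, and, for the ratio change, 5 or more per assay. Where no read minimum was set, the minimum per assay was dropped too. With 1 sample per group no p-value between conditions is given. The upper limit for 0 reads was set at 3 reads; on the TPM scale this is 5.06 and 5.67 in bulk RNA (uninjured, injured) and 14.5 and 37.8 in RiboTag RNA. Reads carry no molecular identifiers. The code for the bulk and RiboTag injury changes was run on simulated counts that held counting noise only. The other comparisons, the ranks and the search for nearest transcripts were not simulated.

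The transcript, the lists and the rules were chosen with earlier results of these data known. The naming rule took Gap43, the 5 transcripts nearest to it in pattern, and genes of growth, partner and marker lists. Those lists were not used, because 0 of the transcript identifiers are paired with a symbol in the tables. Alternatives were pseudocounts of 1 and 5, TMM (edgeR 4.0.16), DESeq2 1.42.0 size factors, totals without the dominant pair, leaving out a column, read minimums of 0 and 50, and a 1.5-fold abundance window. Summed columns, the next transcript added, transcripts with agreeing columns, and all alternatives for levels and nearest transcripts were added after seeing the data. Python 3.11.15 with scipy 1.17.1 was used.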

Additional observations from a re-analysis of the deposited data

How the results depend on the processing

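With 1 sample per group, the intervals cover counting error only, and the 33 injured RiboTag reads limit every value that uses them. With the dominant pair left out of the totals, the RiboTag levels were 261 TPM without injury and 704 after it, and the RiboTag to bulk log2 ratios of Gap43 were 0.19 and 1.06, because the totals are smaller. Both injury changes and the ratio change stayed inside their reported intervals under all 10 alternatives. With a pseudocount of 5 reads the lead of Gap43 over the median of all transcripts fell from 1.42 to 1.10 for the RiboTag change. For the ratio change the lead fell from 0.73 to 0.18, and for the bulk change from 0.56 to 0.53. Of the ranks among transcripts of like abundance, that of the bulk change was 97.0% among transcripts with agreeing columns. That of the injured ratio was 90.4% with a 1.5-fold window. That of the ratio change was 81.2% with no read minimum and 90.2% among transcripts with agreeing columns. The cause was not tested. Among all transcripts with no read minimum, 73.8% lay below Gap43 for the bulk change, 77.3% for the RiboTag change, 36.5% and 40.6% for the uninjured and injured ratio and 52.6% for the ratio change, since many transcripts with few reads enter. Of the 5 nearest transcripts, 3 were again nearest without column 1, 3 without column 2, 2 without column 3 and 1 with the columns summed. Sums over all transcripts of the gene were not run, as no table pairs identifiers with genes. No paired analysis was possible because each group has 1 sample.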
